A study of Homo sapiens with 6 samples.

Results

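The 10 genes described here make, break down or receive prostaglandins: the cyclooxygenases PTGS1 and PTGS2, the prostaglandin E2 (PGE2) synthases PTGES, PTGES2 and PTGES3, the prostacyclin synthase PTGIS, the degrading enzyme HPGD, and the receptors PTGER2, PTGER4 and PTGFR. They were taken by gene symbol from a list chosen with earlier results of these data known. All 10 were found among the 25368 symbols of each of 2 tables of RNA-seq gene expression in MRC5 cells. MRC5 is a line of human embryonic lung fibroblasts, here immortalised with a telomerase (hTERT) lentivirus, so every library came from a single line. The first table, on JUN overexpression, holds cells infected with adenovirus that carried an empty vector (control), FLAG-tagged wild-type JUN (JUN WT) or FLAG-tagged JUN whose JNK-phosphorylation sites were changed to alanine (JUN AA). The second, the JNKi table, holds MRC5 cells without treatment (MRC5), induced cancer-associated fibroblasts (iCAFs), which were MRC5 cells kept for 7 days in medium conditioned by the breast cancer line MDA-MB-231, and iCAFs given the JNK inhibitor JNK-IN-8 (JNKi) at 1 µM for 48 h (iCAFs+JNKi). The authors collected the conditioned medium without serum and maintained MRC5 cells with serum, and whether serum was added for the iCAFs is not stated. Factors from the tumour cells and a difference in serum can therefore not be told apart in comparisons against MRC5. The labels name DMSO as the vehicle of the inhibitor but do not say whether the iCAFs library received it. Each condition has 1 library, so no difference below has an error or a p-value, and the order of any neighbouring levels cannot be separated from the unknown spread between cultures.

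Prostaglandins are short-lived lipid signals. Phospholipases free arachidonic acid from membranes, a cyclooxygenase turns it into prostaglandin H2, and a terminal synthase then sets which prostanoid is made. PTGS1 (COX-1) is known as the constitutive cyclooxygenase and PTGS2 (COX-2) as the one induced by cytokines and growth factors, whose transcripts are short-lived. PTGES (mPGES-1) is the inducible PGE2 synthase, whereas PTGES2 and PTGES3 are more broadly expressed, and PTGES3 is also the HSP90 co-chaperone p23. PGE2 made by fibroblasts acts on epithelial, immune and stromal cells in inflamed and tumour tissue.

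The values are FPKM, fragments scaled by the exon length of the gene and the mapped fragments of the library, which can be compared between genes because they are scaled by length. Differences are given as log2(FPKM + 1) in the first library named minus the second, a scale that understates the difference of low genes. They are set against all genes that average 1 FPKM or more over the 3 libraries of the table, which are 10311 with JUN overexpression and 11780 in the JNKi table. A gene is called 2-fold higher or lower where this difference reaches 1 in size. The tables were normalised separately and were compared only within themselves.

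JUN itself was at 25.5 FPKM in control cells, 4543 with JUN WT and 291 with JUN AA, so total JUN mRNA was lower with the mutant than with the wild type, and a value per gene cannot separate introduced from endogenous transcripts. A difference between JUN WT and JUN AA can therefore not be told apart from one of JUN amount. In these bulk cultures, fewer cells that express a gene and less of its RNA per cell cannot be told apart either. In the JNKi table JUN was at 57.1 FPKM in MRC5 cells, 55.3 in iCAFs and 21.1 in iCAFs with JNKi. The part of this lower JUN level in the inhibitor comparisons was not tested. The deposited FPKM summed to between 494603 and 613184 in the JUN overexpression libraries, highest in JUN AA, and to between 359944 and 399532 in the JNKi table. Sequencing depth is unknown. All 8 fibroblast markers examined were above 1 FPKM in all 6 libraries. The epithelial genes CDH1 and ESRP1, the T cell gene CD3E and the endothelial gene CDH5 were listed at 0 in every library, and EPCAM, PTPRC and PECAM1 were at most 0.243 FPKM. The summed level of 7 epithelial markers was 20.0 to 56.4 FPKM and came mostly from KRT8 and KRT18, and that of 6 leukocyte markers was 33.2 to 86.0 FPKM, mostly from CD68 and highest in JUN WT. The 5 endothelial markers summed to between 0.336 and 11.0 FPKM, and the highest value, in iCAFs+JNKi, was mostly TEK. The part of these levels in the results was not tested.

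The promoters of PTGS2, PTGS1 and PTGES are shown because these 3 genes had the largest differences among the 10. Each is the stretch of 250 bases before the start of the canonical transcript on GRCh37 with its GENCODE annotation, the build also called hg19, written 5′ to 3′ on the strand of the gene. Capitals mark CGTCA, the core of the cAMP response element (CRE), and TATAAA, the element known to place the start of transcription in some promoters. The PTGS2 window lies at chr1:186649556-186649805 on the minus strand, the PTGS1 window at chr9:125133053-125133302 on the plus strand and the PTGES window at chr9:132515322-132515571 on the minus strand.
PTGS2: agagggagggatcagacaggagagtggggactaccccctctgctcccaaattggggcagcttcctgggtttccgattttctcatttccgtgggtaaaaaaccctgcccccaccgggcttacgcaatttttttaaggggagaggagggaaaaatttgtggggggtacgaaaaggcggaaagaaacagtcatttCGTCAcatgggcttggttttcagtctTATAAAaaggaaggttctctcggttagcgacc
PTGS1: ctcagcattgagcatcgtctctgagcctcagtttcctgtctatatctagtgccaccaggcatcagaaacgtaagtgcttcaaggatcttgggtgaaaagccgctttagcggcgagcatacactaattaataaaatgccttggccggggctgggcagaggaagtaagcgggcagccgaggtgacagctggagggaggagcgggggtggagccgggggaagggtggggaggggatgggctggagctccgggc
PTGES: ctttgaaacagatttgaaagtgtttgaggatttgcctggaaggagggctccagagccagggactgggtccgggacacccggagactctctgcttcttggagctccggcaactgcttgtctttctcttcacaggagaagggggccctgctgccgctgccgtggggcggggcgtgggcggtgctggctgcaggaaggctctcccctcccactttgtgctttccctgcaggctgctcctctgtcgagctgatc

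In the PTGS2 window CGTCA stands at -58 to -54 and TATAAA at -32 to -27, counted from the transcript start. The windows of PTGS1 and PTGES hold neither. Motifs were searched on both strands. CGTCA was in 25.4% of the promoters of 19874 protein-coding genes and TATAAA in 9.26%. Among the 10 genes, PTGES3 also holds CGTCA, at -21 to -17, and PTGER2 holds it on the other strand at -137 to -133, as TGACG, while only PTGS2 holds TATAAA. The AP-1 heptamer TGANTCA, the sequence that JUN dimers are known to bind, was in 4.69% of all promoters and in 0 of these 10, and the full CRE octamer TGACGTCA, which includes CGTCA, was in 2.40% and in 0 of the 10. These windows are short, and the letters say nothing about binding. The G and C content was 50.4% in the PTGS2 window, 58.4% in that of PTGS1 and 61.2% in that of PTGES, beside a median of 63.2% over all promoters.

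The 10 genes lie at separate loci, and PTGS1, PTGES and PTGES2 are on chromosome 9. PTGS2 occupies chromosome 1 from 186640923 to 186650054 on the minus strand with 10 exons in its canonical transcript, and PTGS1 occupies chromosome 9 from 125132809 to 125157982 on the plus strand with 11. PTGES, from 132500610 to 132515321 on chromosome 9, has 3 exons. Exons of PTGS2 share 219 bases with the antisense RNA PACERR, and those of HPGD share 314 bases with an antisense lncRNA that has no symbol, so reads of these pairs cannot be told apart without strand information, and the strand setting is not given in the sources used here. The other 8 genes shared no exon base with another gene. The annotation holds 5 pseudogenes named after PTGES3 and 2 named after PTGER4, so the reads counted for these genes depend on how multiply mapped reads were treated, which is not given in the sources used here. The 3′ untranslated part of the PTGS2 transcript, 2562 bases long, holds 22 copies of ATTTA, a pentamer known from unstable mRNAs. This is 8.59 per kilobase, beside a median of 1.64 over 18363 transcripts, of which 1.75% were at that density or above it. PTGS1 holds 3 copies in 3159 bases (0.950 per kilobase) and PTGES 1 copy in 1262 bases (0.792 per kilobase).

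PTGS2 was a low gene in MRC5 fibroblasts and a high one in iCAFs. It was at 0.274 FPKM in MRC5 cells, 41.5 in iCAFs and 6.61 in iCAFs with JNKi. The iCAFs library thus stood far above the other two, and the inhibitor library stood between iCAFs and MRC5. The log2 difference of iCAFs against MRC5 was 5.06, and 7 of the 11780 genes had a larger one. The FPKM ratio was 152, and because its lower value is under 1 FPKM, the log2 difference depended on the pseudocount and was 6.80 with a pseudocount of 0.1. With the inhibitor PTGS2 was 6.28 times lower than in iCAFs, a log2 difference of -2.48, and 17 genes were lower by more. It was still 24.1 times the MRC5 level, with a log2 difference of 2.58 against MRC5. Among the genes above 0 in each library, PTGS2 stood above 14.5% in MRC5, above 89.1% in iCAFs and above 56.1% in iCAFs+JNKi.

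**Figure D1:**
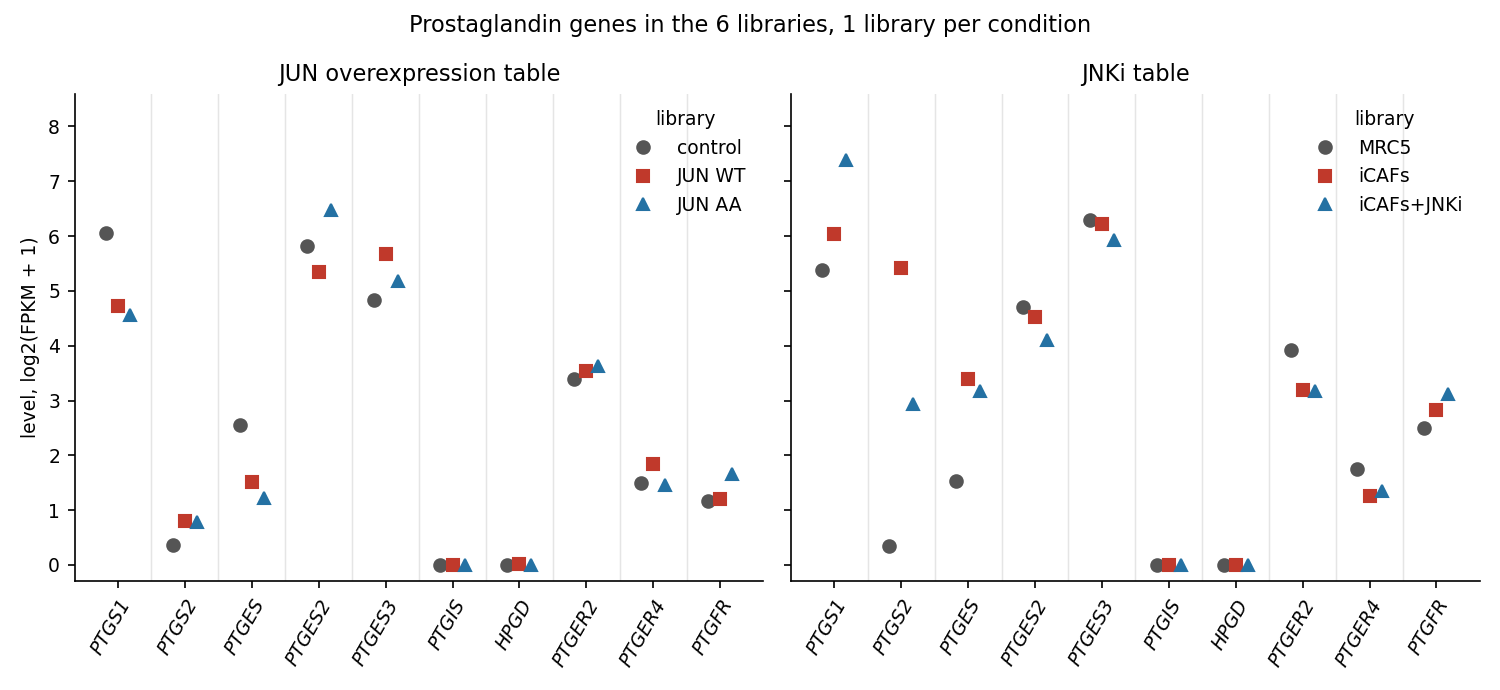
Levels of the 10 genes as log2(FPKM + 1) on the vertical axis, with 1 point per library, in the JUN overexpression table (left) and the JNKi table (right). PTGS2 stands at 5.41 in iCAFs, 2.93 in iCAFs+JNKi and 0.35 in MRC5, while PTGIS and HPGD stay at or near 0 in all libraries.

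In the JUN overexpression table PTGS2 stayed under 1 FPKM. It was at 0.290 FPKM in control cells, 0.750 with JUN WT and 0.731 with JUN AA. Both JUN libraries stood above the control and next to each other, with log2 differences of 0.44 and 0.42 against the control and 0.02 between them. With a pseudocount of 0.1 the differences against the control were 1.12 and 1.09, since the FPKM ratios were 2.59 and 2.52. PTGS2 did not pass the filter on low values in this table, and the number of fragments behind these values is unknown.

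PTGS1, the constitutive cyclooxygenase, had another pattern. It was at 40.6 FPKM in MRC5 cells, 64.4 in iCAFs and 167 in iCAFs with JNKi, so the inhibitor library, and not iCAFs, was the highest of its table. Its log2 difference was 0.65 between iCAFs and MRC5, short of 2-fold, and 1.36 between iCAFs+JNKi and iCAFs, a ratio of 2.59 exceeded by 142 of 11780 genes. Against MRC5 the inhibitor library was 4.11 times higher (log2 difference 2.01). With that level PTGS1 ranked 346 of the 25368 symbols in iCAFs+JNKi.

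Under JUN overexpression PTGS1 was lower in both JUN libraries, where it was at 65.7 FPKM in control cells, 25.5 with JUN WT and 22.5 with JUN AA. The log2 differences against the control were -1.33 for JUN WT and -1.50 for JUN AA. These comparisons share the control library. JUN WT and JUN AA lay close together, with a difference of 0.17.

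The 2 cyclooxygenases can also be compared inside each library, where scaling between libraries has no effect. PTGS2 made up 0.670% of their summed FPKM in MRC5 cells, 39.2% in iCAFs and 3.81% with JNKi. The sum itself was 40.9 FPKM in MRC5 cells, 106 in iCAFs and 174 in iCAFs with JNKi, so total cyclooxygenase mRNA was highest in the inhibitor library although PTGS2 was not. PTGS1 mRNA was 148 times as abundant as PTGS2 mRNA in MRC5, 1.55 times in iCAFs and 25.3 times with JNKi. In the JUN overexpression table PTGS2 was 0.439% of the sum in control cells, 2.86% with JUN WT and 3.14% with JUN AA.

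**Figure D2:**
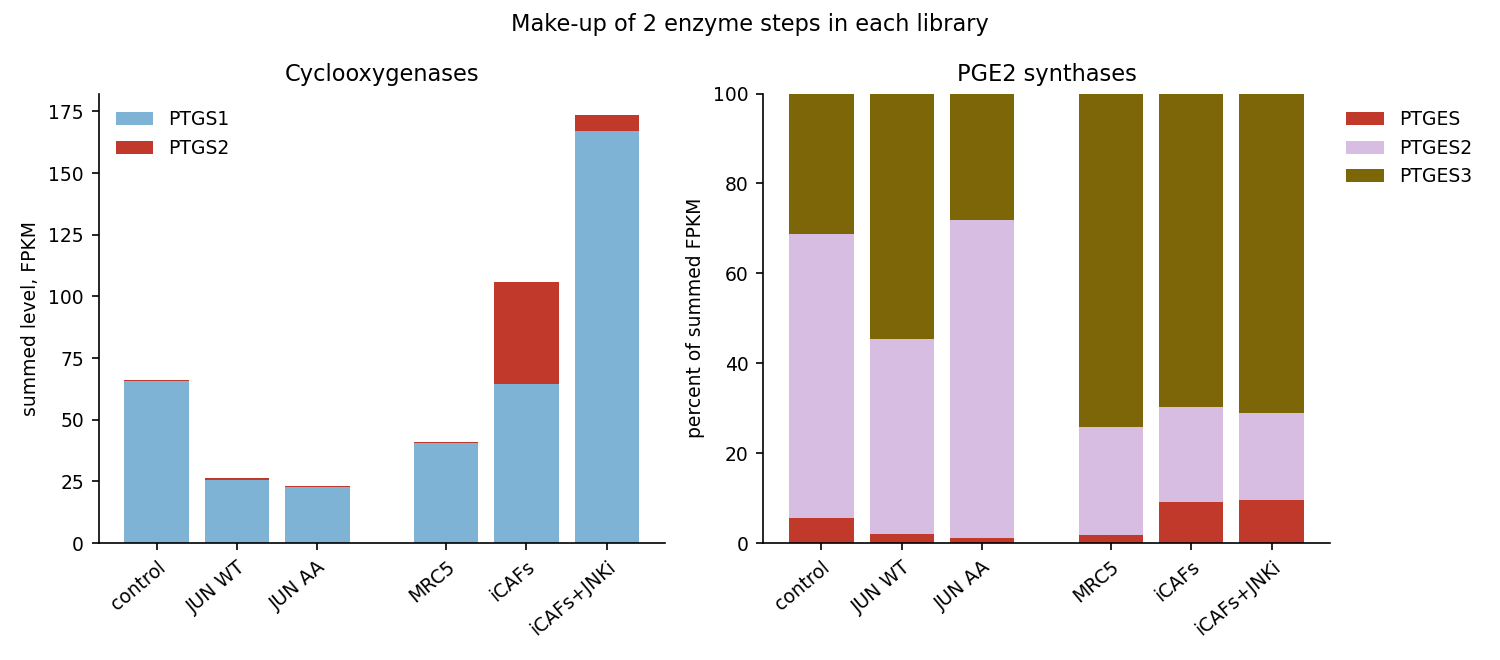
Summed FPKM of PTGS1 and PTGS2 in each library (left) and the share of PTGES, PTGES2 and PTGES3 in their summed FPKM in percent (right), 1 library per bar. PTGS2 takes 39.2% of the cyclooxygenase bar in iCAFs and at most 3.81% in the other 5 libraries, and PTGES takes 9.09% of the synthase bar in iCAFs and 9.57% in iCAFs+JNKi.

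PTGES, which converts prostaglandin H2 to PGE2 and is often induced together with PTGS2, was higher in iCAFs with and without the inhibitor. It was at 1.89 FPKM in MRC5 cells, 9.54 in iCAFs and 8.05 in iCAFs with JNKi. Both iCAFs libraries stood well above MRC5 and near each other. The log2 difference of iCAFs against MRC5 was 1.86, a ratio of 5.04, and 81 genes had a larger one, while that of iCAFs+JNKi against iCAFs was -0.22. PTGES and PTGS2 were thus both higher in iCAFs than in MRC5, and in the inhibitor library PTGS2 was lower by more than 2-fold and PTGES was not.

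In the JUN overexpression table PTGES was highest in the control, at 4.87 FPKM, against 1.87 FPKM with JUN WT and 1.34 with JUN AA. The log2 differences were -1.03 and -1.33. As with PTGS1, both JUN libraries lay below the control. PTGES had a mean below 5 FPKM in this table and left the count when only genes above that mean were used.

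PTGES2 and PTGES3 carried most of the PGE2 synthase mRNA in every library. PTGES2 was at 24.9 FPKM in MRC5 cells, 22.1 in iCAFs and 16.3 in iCAFs with JNKi, and PTGES3 was at 77.0, 73.2 and 59.8 FPKM, respectively. For both genes the differences between these libraries were short of 2-fold, from -0.07 to -0.59, and no library stood apart. PTGES made up 1.82% of the summed FPKM of the 3 synthases in MRC5 cells, 9.09% in iCAFs and 9.57% in iCAFs with JNKi.

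The same 2 genes varied more in the JUN overexpression table. PTGES2 was at 55.6 FPKM in control cells, 39.8 with JUN WT and 87.9 with JUN AA. It was thus 2.21 times higher in JUN AA than in JUN WT, a log2 difference of -1.12 for JUN WT against JUN AA, and 432 of 10311 genes were lower by more in that comparison. This was the only 2-fold difference of the 10 genes between JUN WT and JUN AA, and it was -0.84 when each library was rescaled to an equal FPKM sum. PTGES3 was at 27.4 FPKM in control cells, 50.3 with JUN WT and 35.1 with JUN AA, with a difference of 0.86 between JUN WT and control. The larger share of synthase mRNA was PTGES2 in the control (63.3%) and JUN AA (70.7%) and PTGES3 in JUN WT (54.7%).

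PTGIS, which makes prostacyclin, was listed at 0 in all 6 libraries. HPGD (15-PGDH), the enzyme that starts the inactivation of PGE2, was listed at 0 in 5 libraries and at 0.015 FPKM in JUN WT. Neither gives a difference that can be read. An FPKM of 0 gives no limit without the depth. Of 84 genes named as ribosomal proteins, 2, RPL10L and RPL3L, which are tissue-restricted copies, were also listed at 0 in the 3 libraries of each table.

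The PGE2 receptors PTGER2 (EP2) and PTGER4 (EP4), which signal through cAMP, and the prostaglandin F receptor PTGFR (FP), which signals through calcium, were detected in all 6 libraries and reached 2-fold in no comparison. PTGER2 was at 14.1 FPKM in MRC5 cells, 8.11 in iCAFs and 8.07 in iCAFs with JNKi, so both iCAFs libraries lay below MRC5 at nearly equal levels. Its log2 difference between iCAFs and MRC5 was -0.73, and 433 of 11780 genes were lower by more. PTGER4 was at 2.36 FPKM in MRC5 cells, 1.39 in iCAFs and 1.55 in iCAFs with JNKi, with a difference of -0.49 between iCAFs and MRC5. PTGER2 and PTGER4 were thus lower in the library where PTGS2 and PTGES were high, and the inhibitor library was near iCAFs for both, with differences of -0.01 and 0.10. PTGFR went the other way, at 4.67 FPKM in MRC5 cells, 6.06 in iCAFs and 7.68 in iCAFs with JNKi, with a difference of 0.61 between the last and MRC5.

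Under JUN overexpression the receptors lay close together. PTGER2 was at 9.54 FPKM in control cells, 10.6 with JUN WT and 11.3 with JUN AA. PTGER4 was at 1.82, 2.58 and 1.75 FPKM, respectively, and PTGFR was at 1.24, 1.30 and 2.14 FPKM. The differences ranged from -0.45 to 0.49, and that of PTGER2 between JUN AA and control changed sign with the scaling, 0.23 as deposited and -0.06 when libraries were rescaled to an equal FPKM sum. Inside a library, PTGER2 mRNA was between 4.13 and 6.48 times as abundant as PTGER4 mRNA in all 6 libraries.

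**Figure D3:**
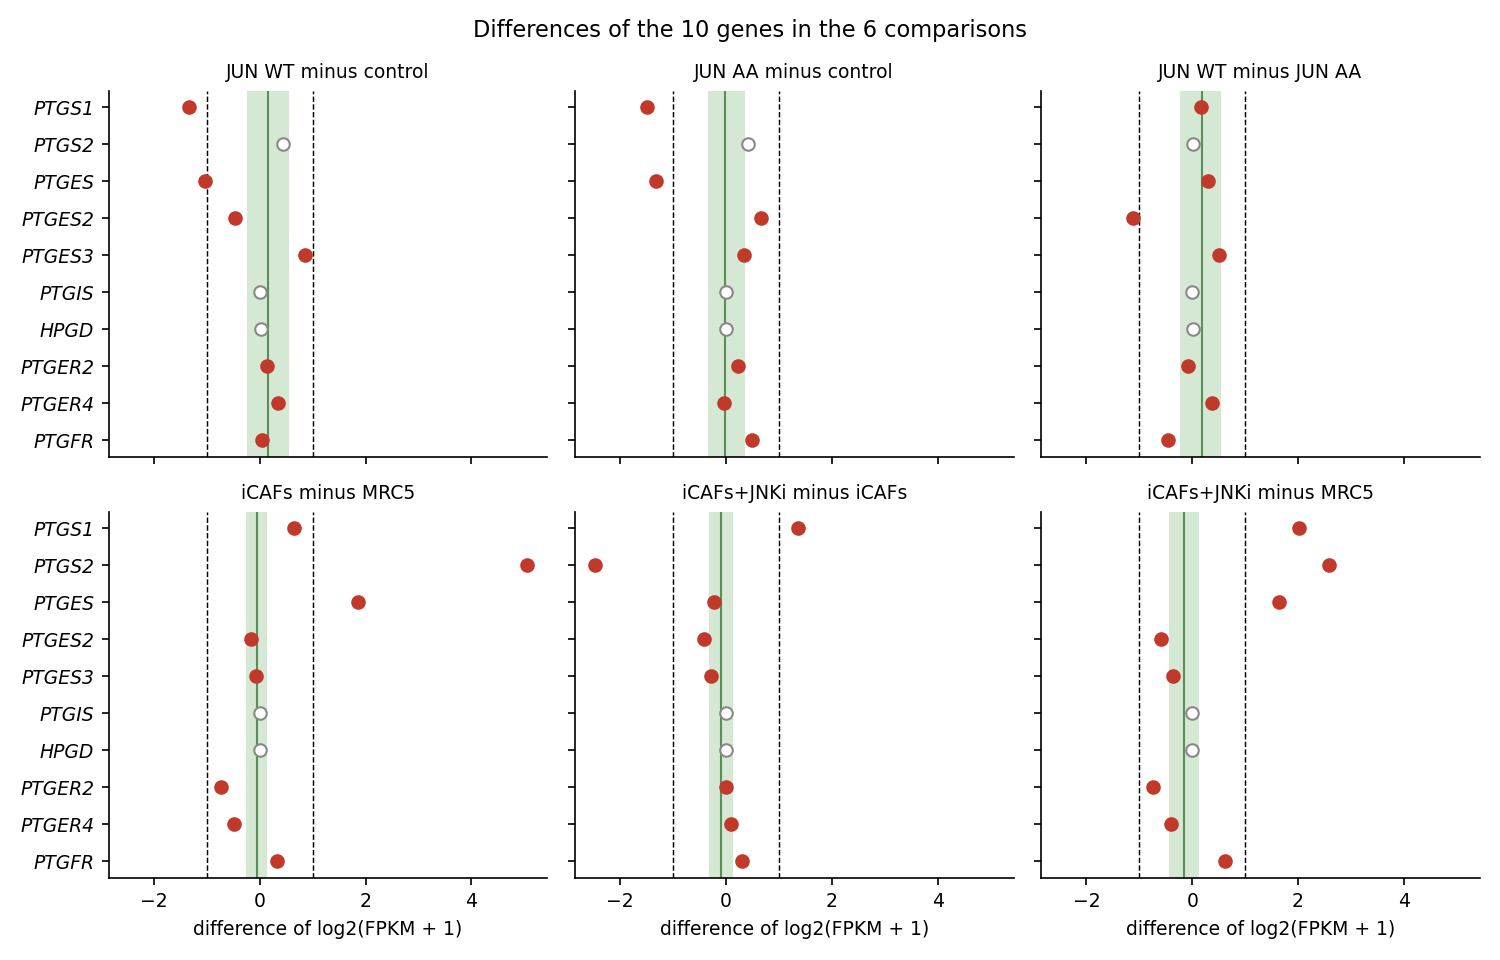
Differences of log2(FPKM + 1) of the 10 genes in the 6 comparisons, with dashed lines at 2-fold, a green band for the interquartile range of all genes past the filter and a green line for their median. Open points are genes under the filter in that table. PTGS2 lies at 5.06 in iCAFs minus MRC5 and at -2.48 in iCAFs+JNKi minus iCAFs, and PTGS1 and PTGES lie left of the 2-fold line in both JUN libraries against the control.

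The counts were read beside the background of all genes. In iCAFs against MRC5, 8 of the 10 genes passed the filter, PTGS2 only through its iCAFs and iCAFs+JNKi values, and 2 of them, PTGS2 and PTGES, were 2-fold higher and 0 lower, where 1.94% of all genes were higher and 1.71% lower. In iCAFs+JNKi against iCAFs, PTGS1 was 2-fold higher and PTGS2 2-fold lower, beside 2.25% and 1.97% of all genes. In iCAFs+JNKi against MRC5, 3 genes, PTGS1, PTGS2 and PTGES, were higher and 0 lower, beside 3.28% and 3.53%. The balance of all genes depended on centring. With the inhibitor against iCAFs, 265 genes stood higher and 232 lower, and 323 and 182 once differences were centred on the median gene. Against MRC5 the inhibitor library had 386 higher and 416 lower, and 517 and 267 after centring. The calls of the 10 genes were the same with and without it.

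Of the 10 genes, 7 passed the filter with JUN overexpression. Against the control, JUN WT had PTGS1 and PTGES 2-fold lower and 0 genes higher, where 3.39% of all genes were lower and 6.92% higher. The same 2 were lower in JUN AA and 0 higher, where 3.77% of all genes were lower and 5.29% higher. In JUN WT against JUN AA, PTGES2 was lower and 0 were higher, beside 5.61% and 6.65% of all genes. The balance of all genes depended on scaling here too. In JUN WT against control 714 genes were higher and 350 lower, and 436 and 522 after centring. In JUN AA against control 545 were higher and 389 lower, and 338 and 957 when libraries were rescaled to an equal FPKM sum. In JUN WT against JUN AA 686 were higher and 578 lower, and 1770 and 364 after that rescaling. The median difference of the genes that passed was 0.12 beside -0.06 for all genes in iCAFs against MRC5, -0.11 beside -0.10 in iCAFs+JNKi against iCAFs and 0.04 beside 0.15 in JUN WT against control. The gap was widest in iCAFs+JNKi against MRC5, with 0.13 beside -0.16. All 2-fold differences among the 10 were those of PTGS1, PTGS2, PTGES and PTGES2.

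The 5 genes nearest to PTGS2 in pattern included the secreted factors IL6, CCL2 and CXCL3. Nearness was measured as the Euclidean distance over the 6 libraries after log2(FPKM + 1) was centred within each table, over 10020 genes that average 1 FPKM or more in both tables, and it describes these 6 libraries only. PTGS2 itself averaged 0.590 FPKM in the JUN overexpression table, so genes as low as PTGS2 there were not considered. IL6 and CXCL3 reached the limit in that table only through their JUN WT values. The nearest were the cytokine IL6 (distance 1.38), C8orf4 (1.48), the chemokines CCL2 (1.49) and CXCL3 (1.60) and ZC3H12A (1.60), an RNase that degrades inflammatory mRNAs. IL6 was at 0.627 FPKM in MRC5 cells, 129 in iCAFs and 16.4 in iCAFs with JNKi, and CCL2 was at 14.8, 159 and 38.1 FPKM. In these libraries the order of the levels was that of PTGS2, with iCAFs highest and the inhibitor library in between. Both genes were chosen for nearness to PTGS2, so this shared order is no separate result. In the JUN overexpression table IL6 was at 0.805 FPKM in control cells, 2.43 with JUN WT and 0.251 with JUN AA, so that, unlike PTGS2, it was lower in JUN AA than in the control. IL6 shares 428 exon bases with an antisense RNA and 46 with the coding gene STEAP1B, also on the opposite strand.

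Distances to the nearest genes were smaller for PTGS1 than for PTGS2, but they were not scaled for the range of the gene. The largest range within a table was 2.01 for PTGS1 and 5.06 for PTGS2. The genes nearest to PTGS1 included matrix genes. They were BGN (biglycan, distance 0.229), COL6A3 (a collagen VI chain, 0.343), ST5 (0.436), TGFB2 (a TGF-beta ligand, 0.437) and GABARAPL1 (an autophagy protein, 0.445). BGN was at 83.9 FPKM in control cells, 31.1 with JUN WT and 33.0 with JUN AA, and at 40.6, 62.5 and 147 FPKM in MRC5, iCAFs and iCAFs+JNKi. COL6A3 was at 190.4, 96.1 and 73.7 FPKM in those 3 libraries of JUN overexpression and at 327, 430.2 and 1067 FPKM in the 3 of the JNKi table. Like PTGS1, both were lower in the JUN libraries than in the control and were highest with the inhibitor within the JNKi table. This likeness follows from their choice by nearness to PTGS1 and is no separate result. Of the 8 fibroblast markers, 6 were also highest in iCAFs+JNKi within the JNKi table, whereas VIM and THY1 were highest in MRC5, and the 8 summed to 5571 FPKM in MRC5, 3983 in iCAFs and 6149 with JNKi. The part of these levels in the PTGS1 result was not tested. ST5, TGFB2 and GABARAPL1 share exon bases with antisense genes, and TGFB2 also shares 1371 exon bases with the lncRNA TGFB2-OT1 on its own strand.

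**Figure D4:**
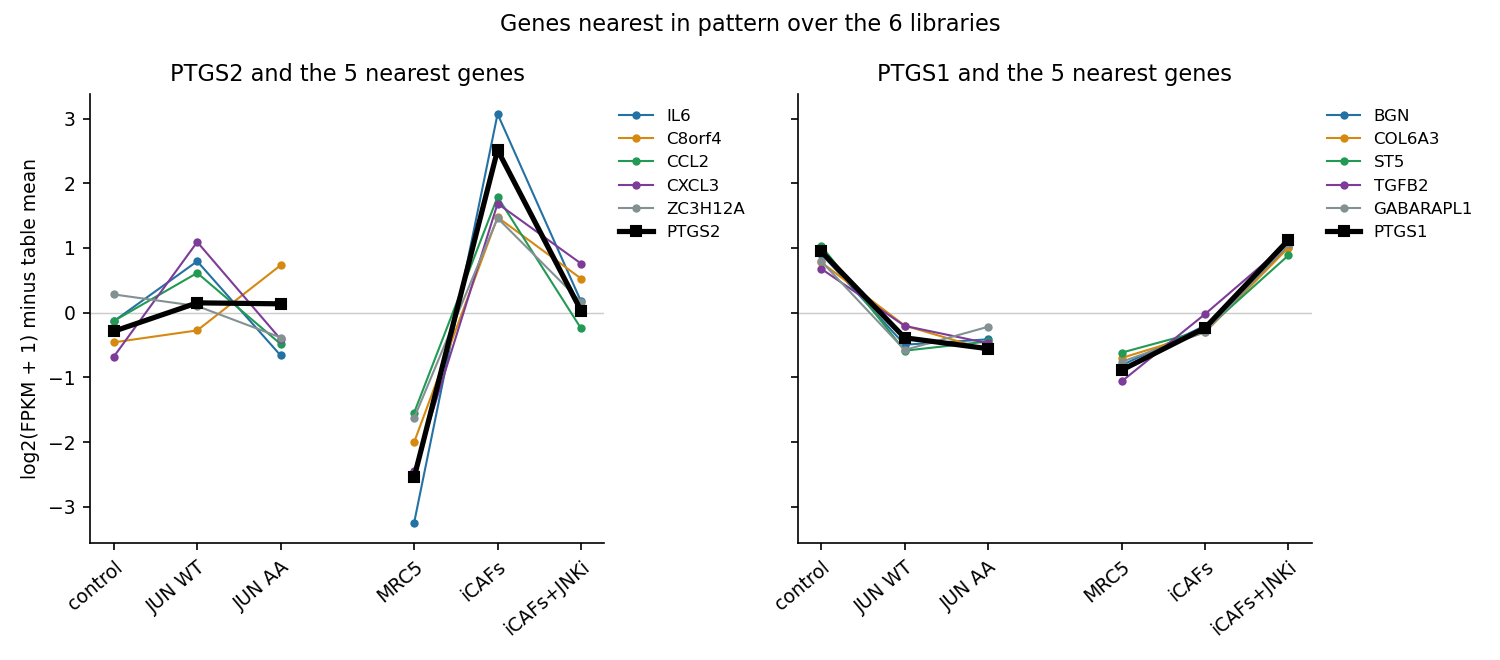
PTGS2 (left) and PTGS1 (right) in black with the 5 genes nearest in pattern, as log2(FPKM + 1) minus the mean of the table, in the 6 libraries, and lines join libraries of 1 table. The genes near PTGS2 peak in iCAFs and differ among themselves in JUN WT and JUN AA, and those near PTGS1 are highest in the control and in iCAFs+JNKi.

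Around the 10 genes, a wider list of 41 further eicosanoid genes covered arachidonate release, other prostanoid synthases and receptors, transport and further breakdown, and the leukotriene branch. Enough signal for the filter was found for 18 of these with JUN overexpression and for 19 in the JNKi table. In iCAFs against MRC5, 2 were 2-fold higher, PLA2G4A and AKR1B1, and 1 was lower, PTGDS, where 1.94% of all genes were higher and 1.71% lower. PLA2G4A, the cytosolic phospholipase that frees arachidonic acid, was at 0.617 FPKM in MRC5 cells, 2.48 in iCAFs and 1.24 in iCAFs with JNKi, and it passed the filter only through its iCAFs value. AKR1B1, an aldo-keto reductase that can make prostaglandin F2, was at 299.6 FPKM in MRC5 cells, 998 in iCAFs and 445 in iCAFs with JNKi, and the annotation holds 8 pseudogenes named after it. Both were highest in iCAFs and lower with the inhibitor, as PTGS2 was, and for AKR1B1 the difference between iCAFs+JNKi and iCAFs (-1.16) was past 2-fold and for PLA2G4A it was not (-0.63).

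In iCAFs+JNKi against iCAFs, 2 genes of the wider list were 2-fold higher, PTGDS and TBXAS1, and 1 was lower, AKR1B1, beside 2.25% and 1.97% of all genes. TBXAS1, the thromboxane synthase, was at 4.98 FPKM in MRC5 cells, 5.14 in iCAFs and 17.2 in iCAFs with JNKi, so like PTGS1 it was highest with the inhibitor. PTGDS, a prostaglandin D2 synthase, was at 9.34, 2.14 and 6.17 FPKM, respectively, and it shares 634 exon bases with another coding gene on its strand. Against MRC5, TBXAS1 was 2-fold higher in iCAFs+JNKi, and ANXA1 and CBR3 were 2-fold lower, beside 3.28% and 3.53% of all genes, and the call of CBR3 was lost when differences were centred on the median gene. ANXA1 (annexin A1), which is known to restrain phospholipase A2, was at 438 FPKM in MRC5 cells, 222 in iCAFs and 134 in iCAFs with JNKi.

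In JUN WT against control, 6 genes of the wider list were 2-fold higher, ANXA1, AKR1B1, PTGIR, TBXA2R, CBR3 and LTA4H, and 2 were lower, PTGDS and TBXAS1, where 6.92% of all genes were higher and 3.39% lower. AKR1B1 was at 377 FPKM in control cells, 992 with JUN WT and 322 with JUN AA, and PTGIR, the prostacyclin receptor, was at 2.1, 6.58 and 1.35 FPKM. In both genes JUN WT stood above the other two libraries, and JUN AA was near the control or below it. TBXA2R, the thromboxane receptor, was at 0.917 FPKM in control cells, 2.97 with JUN WT and 1.30 with JUN AA, and its call was lost when differences were centred on the median gene. LTA4H, which makes leukotriene B4, was at 5.51 FPKM in control cells, 15.6 with JUN WT and 8.64 with JUN AA.

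In JUN AA against control, ANXA1 and CBR3 were 2-fold higher and PTGDS 2-fold lower, beside 5.29% and 3.77% of all genes. ANXA1 was at 113 FPKM in control cells, 268 with JUN WT and 727 with JUN AA, highest in the mutant. PTGDS was at 82.5, 25.9 and 23.9 FPKM and TBXAS1 at 9.86, 3.14 and 4.54 FPKM, so that, like PTGS1 and PTGES, both were highest in the control. CBR3, a carbonyl reductase, was at 2.28 FPKM in control cells, 7.19 with JUN WT and 5.59 with JUN AA, and its call in JUN AA was lost with rescaled FPKM. CBR3 and LTA4H share exon bases with antisense RNAs.

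**Figure D5:**
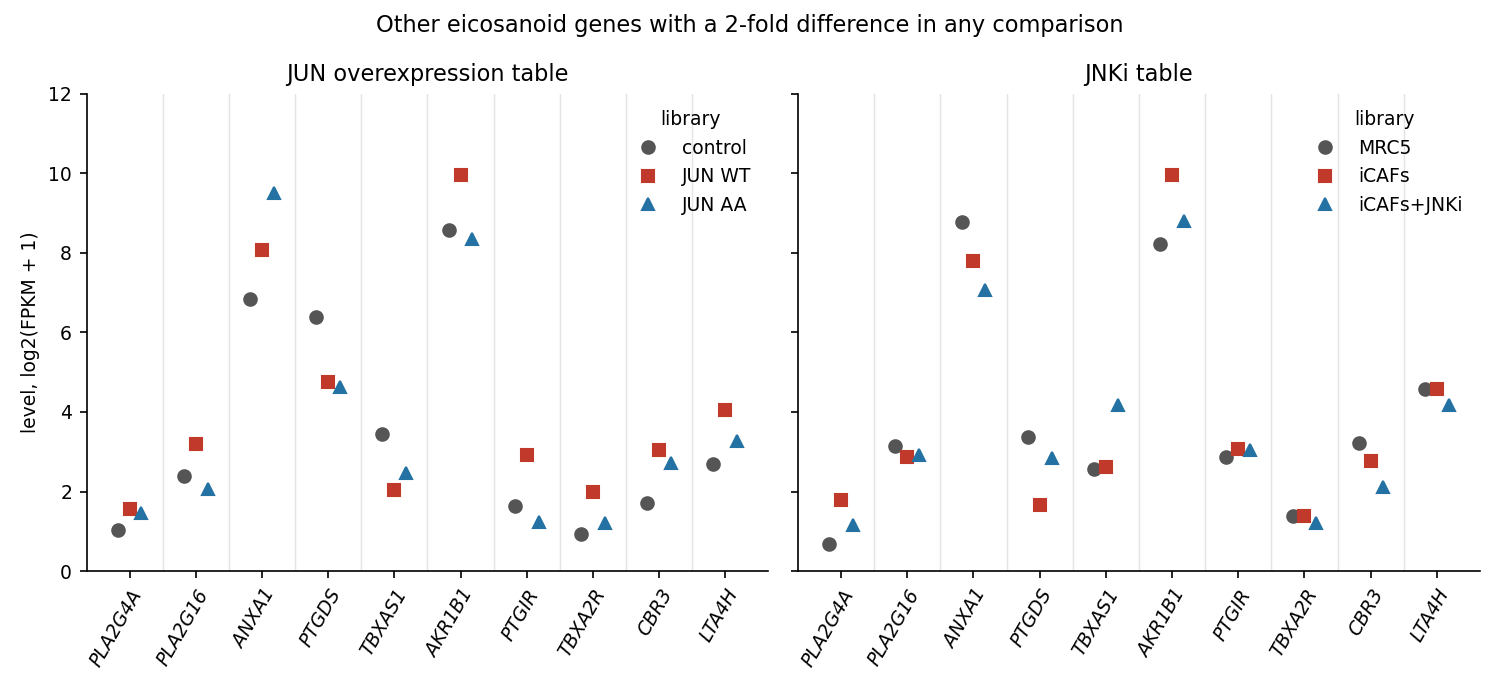
Levels as log2(FPKM + 1) of the 10 genes of the wider eicosanoid list with a 2-fold difference in any comparison, 1 point per library, in the JUN overexpression table (left) and the JNKi table (right). AKR1B1 is highest in JUN WT and in iCAFs, and TBXAS1 is highest in the control and in iCAFs+JNKi.

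In JUN WT against JUN AA, PLA2G16, AKR1B1 and PTGIR were 2-fold higher and ANXA1 was 2-fold lower, beside 6.65% and 5.61% of all genes. The count of 3 higher was 8 with libraries rescaled to an equal sum, where the count over all genes went from 686 to 1770 as well, and 2 with differences centred on the median gene. AKR1B1 and PTGIR were above 2-fold and ANXA1 below it under these settings too. How many of all genes show the combinations given next was not counted, so they are not read as particular to the genes named. Across the 10 genes and the wider list, AKR1B1 was the gene 2-fold higher in both JUN WT against control and iCAFs against MRC5. It was also 2-fold lower in iCAFs+JNKi against iCAFs. PTGS1, TBXAS1 and PTGDS were 2-fold lower in JUN WT against control and 2-fold higher in iCAFs+JNKi against iCAFs. These 3 were not lower in JUN WT alone. In JUN AA against control PTGS1 was at -1.50, PTGDS at -1.74 and TBXAS1, just short of 2-fold, at -0.97, while AKR1B1 was at -0.23. TBXAS1 was past 2-fold there with rescaled FPKM and with a pseudocount of 0.1. The comparisons with and without the inhibitor share the iCAFs library.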

How the data were processed

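RNA was extracted from 6 MRC5 cultures, 1 per condition, and libraries were made with the NEBNext Ultra RNA kit. The authors mapped reads to hg19 with HISAT2 2.1.0 and deposited FPKM per gene from StringTie 2.1.1. The annotation, strand setting and read number are not given in the sources used here. Each table has 25370 rows, and of rows with the same symbol the one with the highest mean was kept, leaving 25368. A StringTie FPKM is scaled by the mapped fragments of its library, so a few abundant genes can shift all others. Low FPKM showed no common step in the JUN overexpression table. In the JNKi table the commonest ratio of low values, in 1% bins, was 1.01 for iCAFs against MRC5. That bin held 3.15% of genes, beside 1.11% in the next commonest, and no read numbers were derived from it.

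Groups were taken from the sample labels. From the FPKM, log2(FPKM + 1) differences were computed for 6 comparisons in Python 3.11.15 (numpy 2.4.6, pandas 2.3.3, pysam 0.24.0, matplotlib 3.10.9). Genes that average 1 FPKM or more in the table were used and 2-fold was the threshold. With 1 library per condition no test was made. The computation was tested on simulated data without noise, with changes put into genes of 5 FPKM or more. That test checks the arithmetic only, not how reliable a 2-fold call is. The 10 genes, the wider list and the marker lists were chosen with earlier results of these data known. Named genes are the 10, those of the wider list at 2-fold in any comparison, and the 5 nearest in pattern to the 2 genes with the largest range. VIM, THY1 and the other marker genes were named after their values were seen. Positions and sequences are from GRCh37 with GENCODE. Alternatives were a pseudocount of 0.1, no filter, a minimum mean of 5 FPKM, FPKM rescaled to a sum of 1000000 and differences centred on the median gene.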

Additional observations from a re-analysis of the deposited data

How the results depend on the processing

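Of 60 recomputed counts of 2-fold genes (12 counts under 5 alternatives), 57 stayed within 1.5 times the value given, and 3 moved. Counts of 0 stayed at 0 under every alternative, and the other counts were from 1 to 3. The 57 is therefore a weak measure of stability. With a minimum mean of 5 FPKM, the count of lower genes fell from 2 to 1 in JUN WT against control and to 1 in JUN AA against control, because PTGES has a lower mean and was not tested. PTGS1 was kept. With libraries rescaled to an equal FPKM sum, the count of lower genes in JUN WT against JUN AA went from 1 to 0, because PTGES2 was then at -0.84. That rescaling moved the median difference of all genes from -0.02 to -0.29 in JUN AA against control and from 0.18 to 0.47 in JUN WT against JUN AA. Of the 50 single differences under each setting, 15 moved by over 0.25 with rescaled FPKM and 9 with a pseudocount of 0.1, while centring shifts all genes of a comparison by at most 0.18 and could not pass that limit, and no 2-fold difference changed sign. Counts over all genes moved more. With a pseudocount of 0.1 the 714 higher genes in JUN WT against control were 1229, and with a minimum mean of 5 FPKM they were 458. No paired analysis was possible because each condition has 1 library, and for the same reason no library could be left out. Depth is unknown, so PTGS2 in MRC5 and in the JUN overexpression table, PTGER4 and PTGFR are limited by low levels to a degree that cannot be given.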
